A study of Homo sapiens with 8 samples.

Results

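The miRNA repertoire of wild-type H1 cells was described from the 2 wild-type libraries of a series of 8 small RNA libraries. H1 is an established human embryonic stem cell line, and the labels give these cells the wild-type genotype, as against the Dicer mutants of the other groups. The labels describe the RNA samples as biologically independent. The remaining 6 libraries come from Dicer-mutant H1 cells and were not used. All 594 miRNAs of the table were kept, of which 227 are named for the 5p arm of their hairpin, 300 for the 3p arm and 67 for no arm. They held 2680973 reads in replicate 1 and 2725756 reads in replicate 2. Every level below is the percentage of these reads that a miRNA, family or cluster took in a library, and is called its share. The p-values measure only the spread between these 2 libraries.

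A miRNA is cut from a hairpin in its primary transcript by Drosha and then by Dicer, which leaves a duplex of a 5p and a 3p strand. Argonaute keeps mainly 1 strand, and bases 2 to 8 of that strand, the seed, pair with target messages. Hairpins that lie close together are often transcribed as a unit. In human embryonic stem cells the miR-302 cluster, 4 miR-302 hairpins and that of miR-367, is known as a direct target of the pluripotency factors and as a promoter of rapid passage from G1 to S phase.

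The leading miRNAs are shown by sequence because a few seeds recur among them. The sequences are mature RNAs from RefSeq on GRCh38.p14, written 5′ to 3′ with the seed in capitals. RefSeq held a mature sequence for 533 of the 594 names. The first group is read from chromosome 4 (minus strand) for the miR-302 members and from chromosome 19 (plus strand) for miR-372 and miR-373.
miR-302b-3p: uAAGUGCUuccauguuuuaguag
miR-302c-3p: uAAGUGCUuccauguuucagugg
miR-302a-3p: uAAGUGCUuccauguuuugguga
miR-302d-3p: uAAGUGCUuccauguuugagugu
miR-372-3p: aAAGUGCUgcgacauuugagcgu
miR-373-3p: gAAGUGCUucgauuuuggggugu
The second group has the seed of miR-367 and miR-92a.
miR-367-3p: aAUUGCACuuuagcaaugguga
miR-92a-3p: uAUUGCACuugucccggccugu
miR-92b-3p: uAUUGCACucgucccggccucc
miR-25-3p: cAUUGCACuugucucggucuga
The third group has the miR-17 seed, which holds the letters AAGUGC of the first group moved by 1 base.
miR-17-5p: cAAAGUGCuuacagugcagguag
miR-20a-5p: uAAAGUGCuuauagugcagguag
miR-106b-5p: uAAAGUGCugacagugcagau
miR-93-5p: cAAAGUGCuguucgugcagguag
The miR-19 and miR-18 seeds and that of the 5p arm of miR-302a complete the sequences shown.
miR-19b-3p: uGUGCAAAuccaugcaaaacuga
miR-19a-3p: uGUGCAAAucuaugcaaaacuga
miR-18a-5p: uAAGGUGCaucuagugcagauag
miR-302a-5p: aCUUAAACguggauguacuugcu

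The repertoire was dominated by 1 cluster. The 5 most abundant miRNAs were the 3p arms of the miR-302 and miR-367 hairpins, and together they held 38.1% of the reads in replicate 1 and 36.4% in replicate 2. miR-302b-3p took 9.42% and 8.60% in replicates 1 and 2, and was first in both. miR-302c-3p took 8.52% and 7.50%, miR-302a-3p took 7.69% and 6.97%, and miR-302d-3p took 5.84% and 5.37%. These 4 guides, which share their seed and regulate the cell cycle and lineage entry, were all somewhat lower in replicate 2. miR-367-3p, from the last hairpin of the cluster and with another seed, went the other way and took 6.59% and 7.94%. The order among them was only partly fixed by the data. The lowest share of miR-302b-3p lay above the highest of miR-302c-3p, whereas the shares of miR-302c-3p, miR-302a-3p and miR-367-3p overlapped between neighbours.

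Below this group the next rank went to a strand opposite to a leading guide. miR-302a-5p took 2.27% and 3.36%. The 4 miRNAs after it belong to miR-17-92, a cluster best known as an oncogene in lymphoma and a driver of proliferation. miR-19b-3p held 2.41% and 2.51%, miR-17-5p 2.24% and 2.30%, miR-92a-3p 2.25% and 2.28%, and miR-20a-5p 2.21% and 2.26%. The last 3 overlapped in their shares and have no order beyond the spread of the libraries. The names miR-19b-3p and miR-92a-3p each cover 2 loci, so their reads cannot be given to 1 cluster.

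Ranks 11 to 20 mixed further miR-17-92 members, members of the related cluster miR-106b-25 and another 5p arm of the miR-302 cluster with other miRNAs. miR-19a-3p held 1.50% and 1.60%, and miR-18a-5p held 1.51% and 1.53%. miR-130a-3p held 1.26% and 1.25%. miR-16-5p, which restrains the cell cycle, held 1.10% and 1.01%. miR-21-5p, widely raised in tumours and in cultured cells, held 0.929% and 1.17%. miR-302c-5p followed at 0.890% and 1.07%, then miR-103a-3p, which lies in introns of the pantothenate kinase genes PANK2 and PANK3, at 0.958% and 0.931%. miR-106b-5p held 0.851% and 1.01%, miR-93-5p 0.702% and 0.843%, and miR-135a-5p 0.654% and 0.743%. Of the 19 pairs of neighbours among the 20 most abundant, 11 had overlapping shares, so the list is better read as groups than as a strict order.

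The distribution was steep at the top and long below. In each library 11 miRNAs were needed to reach 50% of the reads. The number needed for 90% was 112 in replicate 1 and 117 in replicate 2, and for 99% it was 289 and 305. The 20 most abundant miRNAs held 60.0% ± 0.31 (SD, n = 2). The inverse Simpson index, the number of equally abundant miRNAs that would give the same concentration, was 28.7 in replicate 1 and 30.4 in replicate 2. The median miRNA had 293.5 and 347.5 reads. At the lower end, 193 miRNAs averaged under 100 reads and together held 0.235% and 0.286%.

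**Figure D1:**
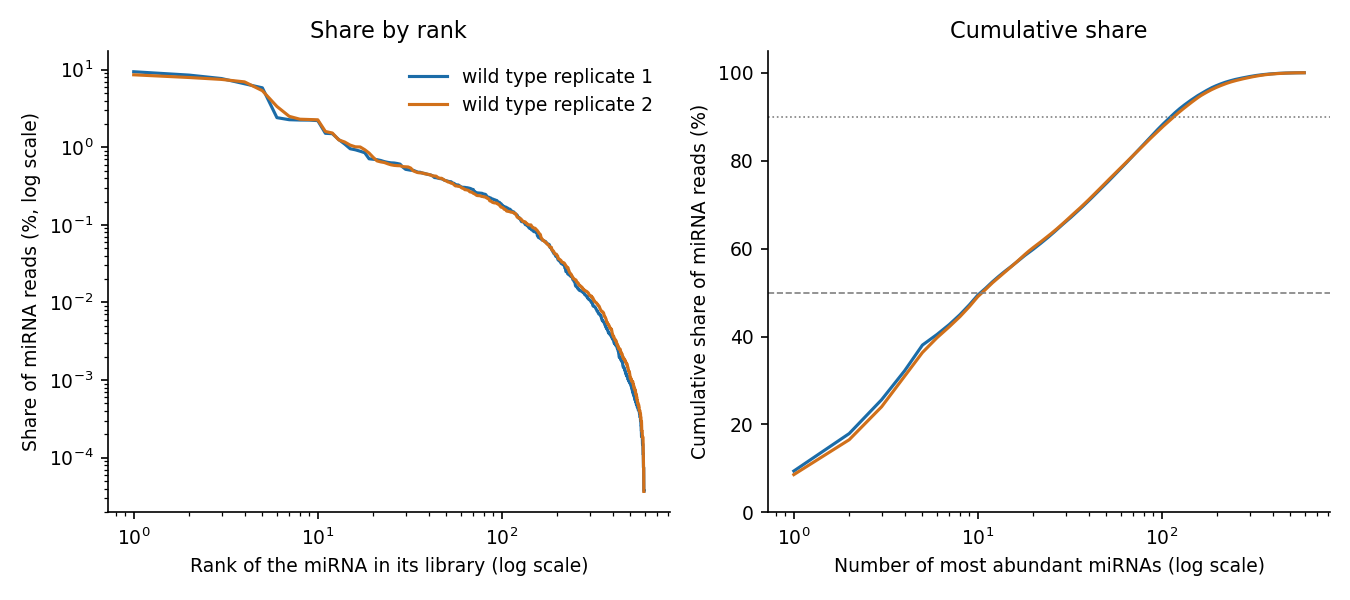
Left, the share of miRNA reads (%, log scale) against the rank of each miRNA within its own library (log scale), for wild-type replicates 1 and 2. Right, the cumulative share (%) against the number of most abundant miRNAs, with dashed and dotted lines at 50% and 90%. Both lines pass 50% at 11 miRNAs.

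The same miRNAs led both libraries. All 10 of the most abundant, 19 of the 20 most abundant and 47 of the 50 most abundant were shared by the 2 libraries. The libraries were closer to each other where more reads were counted. The median absolute log2 difference in share between the libraries was 0.14 for the 49 miRNAs with at least 10000 reads on average. It was 0.24 for those from 1000 to under 10000 reads, 0.38 for those from 100 to under 1000 and 0.66 for those under 100. None of the 49 most deeply read differed by more than 2-fold, against 56 of the 193 least read. For the leading miRNAs the libraries differed by more than counting error. The 95% Wilson interval of miR-302b-3p ran from 9.38% to 9.45% in replicate 1 and from 8.57% to 8.63% in replicate 2. These intervals cover counting error only.

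Among miRNAs with at least 500 reads on average, miR-130a-5p changed most towards replicate 2, from 214 to 905 reads, a 4.15-fold higher share. The next were miR-4521 (3.78-fold), miR-33b-5p (3.63-fold), miR-367-5p (3.59-fold) and miR-186-3p (3.37-fold). Of these, miR-130a-5p, miR-367-5p and miR-186-3p are the less read arms of their hairpins. In the other direction miR-7974 fell from 936 to 168 reads, a share 5.65-fold higher in replicate 1. miR-12136 (1.89-fold), miR-491-5p (1.85-fold), miR-7-5p (1.83-fold) and miR-497-5p (1.73-fold) followed. No test was made of these differences, which have 1 library on each side.

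The cell-type marker miRNAs were set beside the label of the cells. All 8 pluripotency markers (miR-302a, b, c and d-3p, miR-367-3p, miR-371a-3p, miR-372-3p and miR-373-3p) were present, and they summed to 39.7% in replicate 1 and 38.0% in replicate 2. Neural markers summed to 0.952% and 0.747% over the 5 of 6 found in the table. The largest part of that was miR-124-3p, the classic neuronal miRNA, at rank 24 with 0.711% and 0.558%. miR-128-3p held 0.147% and 0.116%, and miR-9-5p held 0.0690% and 0.0584%. The 2 muscle markers in the table, miR-1-3p and miR-133a-3p, summed to 0.0205% and 0.0171%, and the 3 endoderm markers to 0.0347% and 0.0429%. Blood markers (6 of 7) summed to 0.102% and 0.114%, and the 2 arms of the endothelial miR-126 to 0.136% and 0.164%. Epithelial markers (4 of 4; miR-200c-3p, miR-141-3p, miR-205-5p and miR-203a-3p) summed to 1.27% and 1.34%. Fibroblast-enriched miRNAs (8 of 10) summed to 2.20% and 2.48%, led by miR-21-5p, miR-222-3p and miR-221-3p. Their more restricted members miR-143-3p and miR-145-5p held 0.00131% and 0.00180%, and 0.00974% and 0.0121%. Marker names outside the table were not analysed here. Whether the markers came from few cells or from low levels in all of them was not tested.

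Grouped by seed, the repertoire became simpler still. The matched miRNAs fell into 422 families of identical bases 2 to 8, of which 64 had more than 1 miRNA in the table. Among these families of matched names, the 3 largest together passed 50% of all reads, and the 10 largest held 65.2% and 65.3%. The family of miR-302a to d-3p, miR-372-3p and miR-373-3p, with 12 members, took 33.7% in replicate 1 and 30.4% in replicate 2. Outside the 4 miR-302 guides its largest members were miR-372-3p, at 0.676% and 0.637%, and miR-373-3p, at 0.619% and 0.668%. miR-302b-3p alone supplied 28.1% of the family, so no member dominated it. The other members were miR-520a, b, c, d and e-3p of the chromosome 19 cluster and miR-302e.

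The second family, of miR-367-3p, miR-92a-3p, miR-92b-3p, miR-25-3p, miR-363-3p and miR-32-5p, took 10.8% and 12.1%. It joins the pluripotency cluster to miR-17-92 and its relatives through a common seed, and miR-367-3p gave 63.4% of it. The third, with miR-17-5p, miR-20a-5p, miR-106b-5p, miR-93-5p, miR-20b-5p, miR-106a-5p, miR-519d-3p and miR-526b-3p, took 7.52% and 8.09%. Its members come from 4 clusters, and miR-17-5p gave 29.1%. The shares of the first 3 families did not overlap between families.

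Smaller families followed. miR-19b-3p and miR-19a-3p together held 3.91% and 4.11%. miR-302a-5p was alone in its seed family at 2.27% and 3.36%, which overlapped with neither neighbour. The miR-16 and miR-15 family, with miR-16-5p, miR-15b-5p and miR-15a-5p ahead, held 2.13% and 1.90%. miR-18a-5p with miR-18b-5p held 1.71% and 1.75%. The miR-30 members miR-30c-5p, miR-30e-5p and miR-30a-5p held 1.16% and 1.11%. miR-30b-5p and miR-30d-5p, at 0.220% and 0.190% on average, were not counted with them, so the miR-30 share is understated. miR-21-5p with miR-590-5p held 1.00% and 1.26%, and miR-135a-5p with miR-135b-5p held 1.01% and 1.12%. As counted here, the miR-30, miR-21 and miR-135 families overlapped with each other. The 61 names without a matched sequence held 4.70% and 4.90% and are in no family. They include miR-130a-3p, at 1.26% and 1.25%. Families that lack a member for this reason, such as that of miR-130b-3p, are understated and may rank too low.

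**Figure D2:**
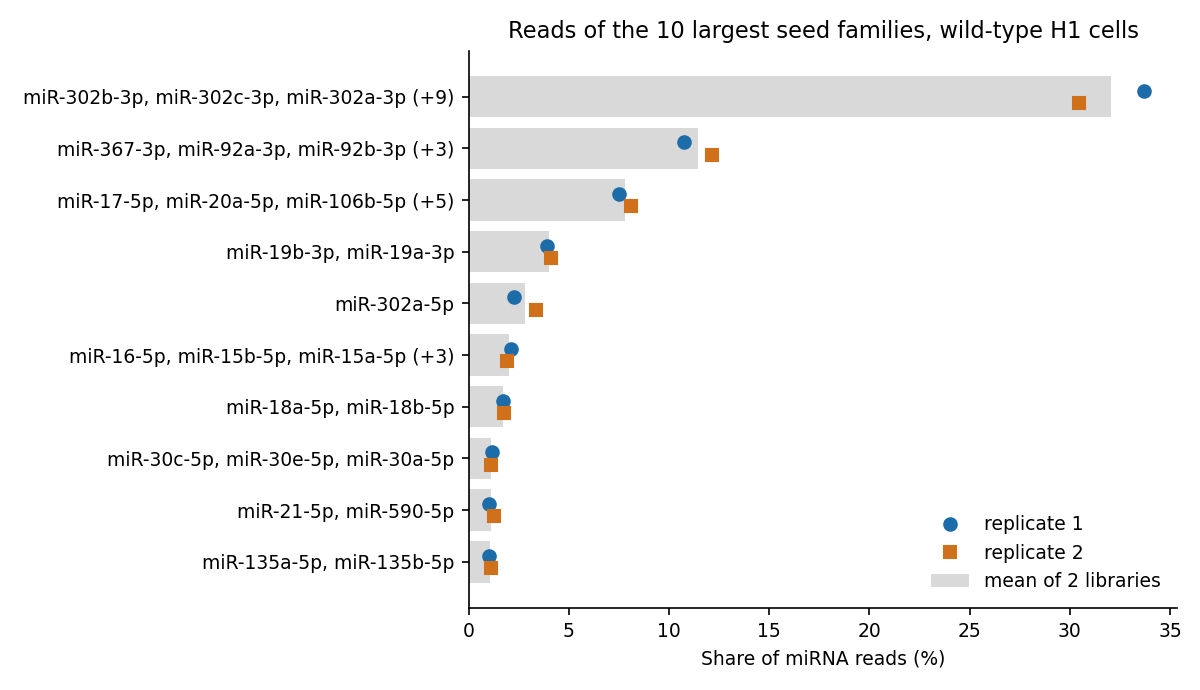
Share of miRNA reads (%) of the 10 largest seed families among names with a matched sequence, each labelled with its leading members and the number of further ones. Bars are means of the 2 wild-type libraries, circles replicate 1 and squares replicate 2; the top family took 33.7% and 30.4%.

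By position in the genome, the miR-302 cluster held 41.8% of the reads in each library. Its 5 hairpins lie within 0.684 kb on chromosome 4, at chr4:112647874-112648557 on the minus strand (GRCh38), in an intron of the antisense transcript AC106864.1 of GENCODE 29. The total was alike in both libraries while its members were not. The 4 miR-302 guides were lower in replicate 2, and miR-367-3p and the 5p arms were higher. The 5p arms made up 8.97% of the cluster in replicate 1 and 13.0% in replicate 2. Within it, miR-302b-3p held 22.5% and 20.6%, miR-302c-3p 20.4% and 17.9%, and miR-302d-3p, the least of the miR-302 guides, 14.0% and 12.8%.

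The chromosome 19 miRNA cluster (C19MC) is a primate-specific tandem array known for imprinted expression in placenta. It spans 95.8 kb at chr19:53666679-53762430 and had 66 miRNAs in the table. Together they took 8.70% and 7.89%, which overlapped with the 8.16% and 8.42% of names made only in miR-17-92. With miR-19b-3p and miR-92a-3p added in full, miR-17-92 would be ahead at 12.8% and 13.2%. No member of C19MC stood out. miR-515-5p led with 5.64% and 5.42% of the cluster, followed by miR-520f-3p with 5.82% and 4.68%, then miR-512-5p with 4.43% and 4.03%. miR-519b-3p held 4.55% and 3.60%, miR-518b 3.77% and 3.98%, and miR-518c-3p 2.63% and 4.17%. miR-512-3p (3.56% and 2.94%), miR-519c-3p (3.47% and 3.01%), miR-517b-3p (3.51% and 2.95%) and miR-517a-3p (3.51% and 2.90%) complete its 10 leading members. The reads of miR-517a-3p and miR-517b-3p are uncertain between the names, since their mature sequences are identical. Over all names, 23 pairs of names have identical sequences and 38 differ by 1 base or are contained in each other. The 50 miRNAs in such pairs held 14.1% and 14.2%, and 59 of the 61 pairs share a seed and so fall in 1 family.

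miR-371-373 lies just beyond C19MC, at chr19:53787675-53788773, and is known from embryonic stem cells and germ cell tumours. It held 2.08% and 2.18%. miR-372-3p gave 32.5% and 29.2% of the cluster, miR-373-3p 29.7% and 30.6%, miR-371a-5p 19.2% and 21.6%, and miR-371a-3p 17.3% and 16.4%. miR-373-5p (0.997% and 1.49%) and miR-372-5p (0.231% and 0.611%) were minor.

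miR-17-92 lies in an exon of its host transcript MIR17HG at chr13:91350605-91351391. The names made only there held 8.16% and 8.42%, and 12.8% and 13.2% with miR-19b-3p and miR-92a-3p added in full. Of the former, miR-17-5p gave 27.5% and 27.3%, miR-20a-5p 27.1% and 26.9%, and miR-18a-5p 18.6% and 18.1%. miR-19a-3p gave 18.4% in replicate 1. The proportions of all 4 moved by less than 1 percentage point between libraries. The remaining arms, miR-18a-3p (0.274% of all reads on average), miR-17-3p (0.252%), miR-20a-3p (0.101%), miR-19b-1-5p (0.0584%), miR-19a-5p (0.0176%) and miR-92a-1-5p (0.0114%), were small.

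Its paralogs were less abundant. miR-106b-25, in an intron of the replication gene MCM7 at chr7:100093560-100094074, held 2.32% and 2.60%. miR-106b-5p gave 36.7% and 38.9% of it, miR-93-5p 30.3% and 32.4%, and miR-25-3p 27.2% and 22.5%. miR-106a-363, at chrX:134169378-134170278, held 1.69% and 1.90% from names made only there. miR-20b-5p gave 32.9% and 29.7%, miR-106a-5p 30.0% and 31.4%, miR-363-3p 20.4% and 21.4%, and miR-18b-5p 11.6% and 11.6%. With the names common to both clusters counted in full, miR-106a-363 would hold 6.34% and 6.69%, which is an upper limit. The 3 paralogous clusters together held 16.8% and 17.7% in 27 miRNAs, and all 6 clusters held 69.4% and 69.6% in 109 miRNAs. The next largest clusters were that of miR-183, miR-96 and miR-182 at 1.01% and 0.892%, and that of miR-221 and miR-222 at 0.883% and 0.961%.

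**Figure D3:**
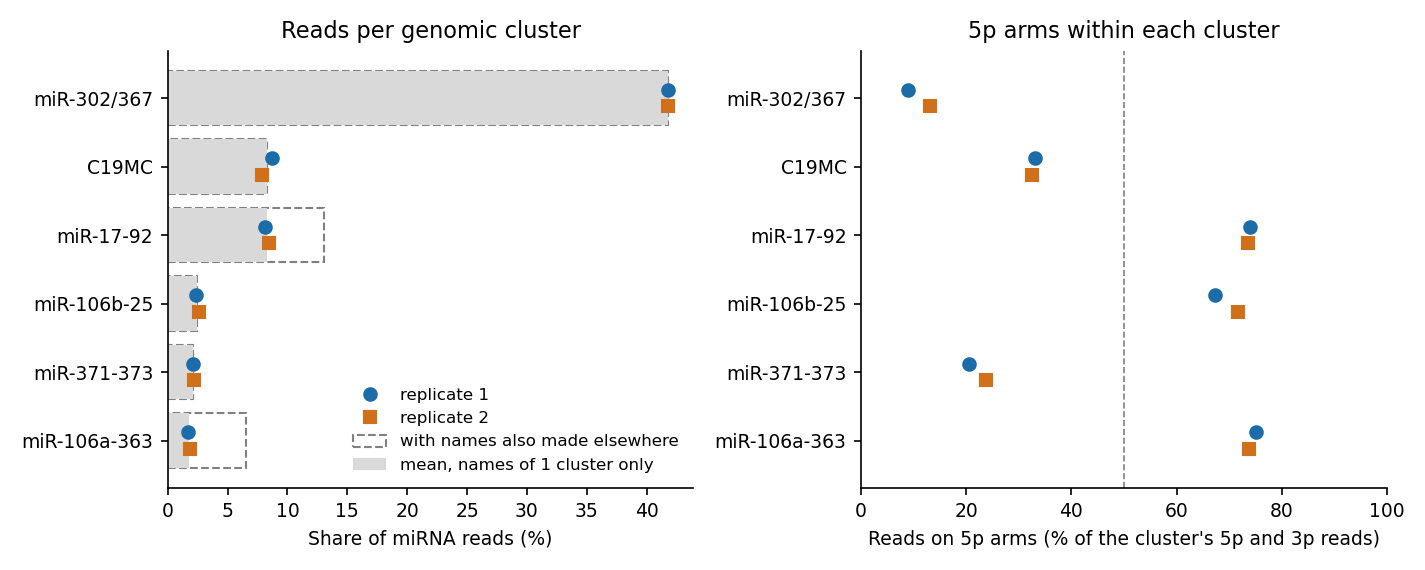
Left, the share of miRNA reads (%) of the 6 clusters: grey bars are means over names made in 1 cluster only, circles and squares replicates 1 and 2, and dashed outlines add names with copies elsewhere. Right, the 5p reads as a percentage of the 5p and 3p reads of each cluster, over names made in 1 cluster only. The miR-302 cluster lies lowest at 8.97% and 13.0%. The names left out are all 3p arms, so the 5p percentages are upper limits for the clusters to which the dashed outlines add names.

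The preferred arm was examined in the 186 hairpins with both arms in the table, which held 85.4% and 85.7% of the reads. Most gave reads mainly from 1 arm. Under limma with moderated variance, 168 of 186 hairpins (90.3%) differed between arms at a Benjamini-Hochberg adjusted p under 0.05. Of these, 102 (54.8% of all tested) had more 5p reads and 66 (35.5%) more 3p reads. In the other 18 neither arm was called. The preferred arm held 90.6% of the reads of these hairpins in replicate 1 and 88.4% in replicate 2. It exceeded the other arm at least 2-fold in both libraries in 155 hairpins, at least 10-fold in 96 and at least 100-fold in 15. The side was the same in both libraries for all called hairpins, and differed in 8 of the others. Since a call rests on the mean ratio of the same libraries, this agreement is largely built into the calls. The moderated spread was common to hairpins of 1 abundance, with standard errors between 0.34 and 0.49 on the log2 scale. The smallest absolute log2 ratio called was 0.919 and the largest not called 0.913. The calls thus amounted to a threshold on the ratio.

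Counted by hairpins the 5p arm led, and counted by reads the 3p arm did. The 5p share of the reads with a named arm was 31.9% in replicate 1 and 34.0% in replicate 2. With each hairpin given equal weight it was 58.1% and 57.7%. Without the 5 most abundant miRNAs, all of them 3p arms of the miR-302 cluster, it was 53.0% on average.

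**Figure D4:**
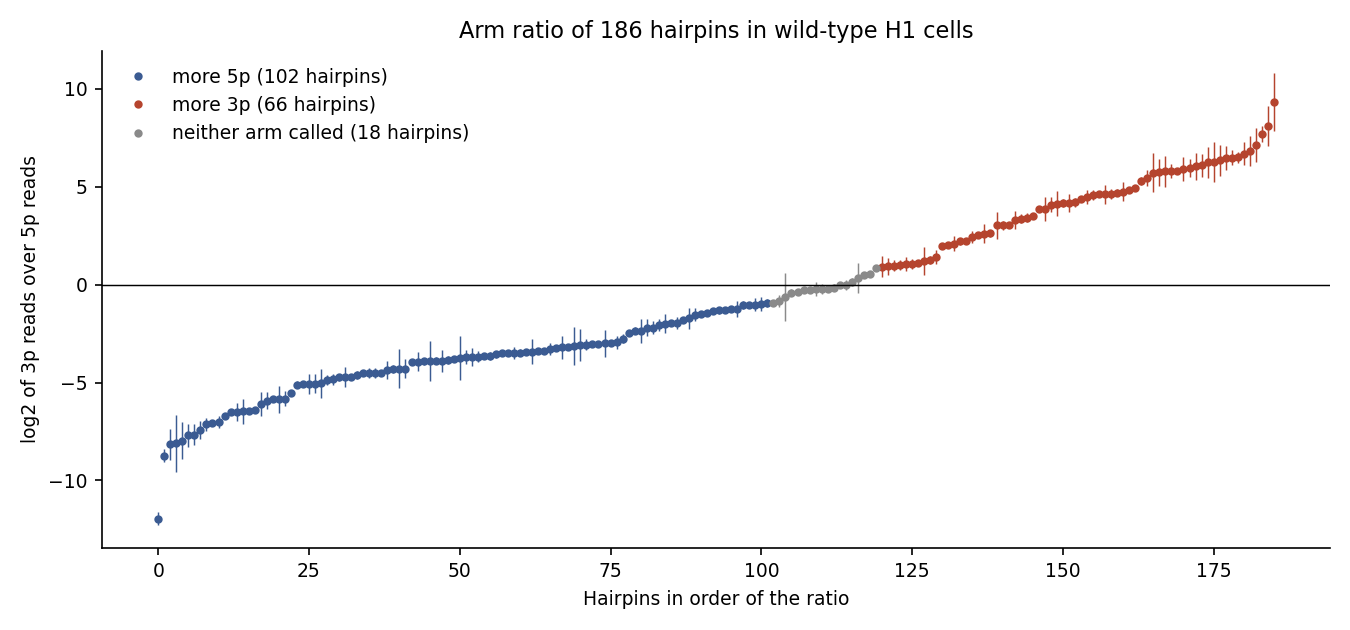
The log2 of 3p reads over 5p reads for 186 hairpins in rising order; points are means of the 2 wild-type libraries and vertical lines join the libraries. Blue hairpins (102) had more 5p reads, red (66) more 3p reads, and grey (18) were not called by limma.

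All 5 hairpins of the miR-302 cluster preferred 3p. Their 5p reads were 22.8% and 32.5% of the hairpin in miR-302a, 9.46% and 12.5% in miR-302c, 3.82% and 7.01% in miR-302b, 2.82% and 3.46% in miR-302d, and 0.754% and 2.22% in miR-367. The 5p percentage was higher in replicate 2 in every one. miR-302a was the least skewed, with 60791 5p and 206266 3p reads in replicate 1 and 91587 and 190005 in replicate 2. Its log2 ratio of 3p over 5p was 1.41 ± 0.45 (SE; limma adjusted p = 0.0027). miR-367 was the most skewed, at 6.25 ± 0.45. In this cluster the less read strands were so numerous that miR-302a-5p, miR-302c-5p and miR-302b-5p ranked 6, 16 and 32 of all miRNAs. These were the only less abundant arms of called hairpins among the 50 most abundant miRNAs, and 69 such arms averaged under 100 reads.

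In miR-371-373 the arms differed by hairpin. miR-372 had 129 5p and 18128 3p reads in replicate 1 and 363 and 17352 in replicate 2. miR-373 also preferred 3p, with 3.24% and 4.64% of its reads on 5p. miR-371a gave both arms, with 10719 5p and 9659 3p reads in replicate 1 and 12859 and 9742 in replicate 2, and was not called (limma adjusted p = 0.56).

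C19MC was mixed. Of its 28 hairpins with both arms, 17 preferred 3p, 8 preferred 5p (miR-498, miR-515, miR-516a, miR-516b, miR-519e, miR-520a, miR-520d and miR-524), and miR-512, miR-518a and miR-525 were not called. Some of these calls rest on an arm with an identical sequence under another name, whose reads are uncertain between hairpins. This holds for the 5p arms of miR-518e, miR-519a, miR-519b, miR-519c, miR-522 and miR-523. It also holds for the 5p arms of miR-518d, miR-520b, miR-520c and miR-526a, and for the 3p arms of miR-516a and miR-516b. The median log2 ratio of 3p over 5p in C19MC was 2.26, against -1.31 over all 186 hairpins. Its extremes were miR-520f, with 24 5p and 13570 3p reads in replicate 1 and 73 and 10061 in replicate 2, and, on the other side, miR-498, with 6136 5p and 290 3p reads in replicate 1 and 4562 and 416 in replicate 2. miR-515, the most abundant of the hairpins called 5p, was among the least skewed of those 8, with 70.4% and 71.6% of its reads on 5p. Close relatives usually agreed. Among 20 name groups with at least 2 called hairpins, 18 had a common direction, and the exceptions, miR-519 and miR-520, are both in C19MC. Some groups hold arms of identical or nearly identical sequence, whose reads may be mixed between names, so their agreement is not independent.

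miR-17-92 and its paralogs used both arms, by hairpin type. The miR-17, miR-18 and miR-20 type hairpins preferred 5p, with 5p percentages of 89.9% and 90.2% in miR-17, 83.8% and 85.7% in miR-18a, and 96.4% and 94.98% in miR-20a. miR-106a, miR-20b, miR-18b, miR-106b and miR-93 also preferred 5p, with between 88.9% and 96.1% of their reads on it. The miR-19 and miR-25 type hairpins preferred 3p. miR-19a had 359 5p and 40174 3p reads in replicate 1 and 594 and 43609 in replicate 2, and miR-25 had 125 and 16903, then 275 and 15939. With 5p reads summed over both loci, miR-19b (log2 ratio 5.16 ± 0.44) and miR-92a (7.42 ± 0.44) were also called 3p.

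Of the 20 named hairpins with large ratios 5 are shown with both strands, beside 1 even hairpin, with the first 4 bases in capitals. They are examples chosen after their values were seen, and the counts over all hairpins with sequences follow further on. The first bases are marked because the strand whose 5′ end pairs less firmly is the one usually kept by Argonaute, and A and U pair less firmly than C and G. miR-96, a miRNA of sensory cells, had 13762 5p and 28 3p reads in replicate 1 and 11993 and 91 in replicate 2.
miR-96-5p: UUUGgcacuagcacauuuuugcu
miR-96-3p: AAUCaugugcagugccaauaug
miR-205, of epithelial cells, had 12358 and 16, then 12761 and 125.
miR-205-5p: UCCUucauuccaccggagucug
miR-205-3p: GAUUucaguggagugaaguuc
miR-191 had 11552 and 48, then 11567 and 92.
miR-191-5p: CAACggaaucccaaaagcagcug
miR-191-3p: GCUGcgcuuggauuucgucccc
miR-23a, on chromosome 19, had 10 and 2944, then 18 and 2888.
miR-23a-5p: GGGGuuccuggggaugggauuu
miR-23a-3p: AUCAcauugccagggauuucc
miR-25, in MCM7, had the counts given above.
miR-25-5p: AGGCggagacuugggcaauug
miR-25-3p: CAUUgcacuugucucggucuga
miR-140, known from cartilage, had the mean log2 ratio nearest to 0 among hairpins with at least 1000 reads, although its libraries lay on opposite sides, and had 2239 and 1843, then 2103 and 2500.
miR-140-5p: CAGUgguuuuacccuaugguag
miR-140-3p: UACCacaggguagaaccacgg
miR-191, miR-23a and miR-25 have more A and U in the first 4 bases of the preferred strand than of the other. miR-96 has equal numbers and miR-205 fewer. miR-135a, which has the largest ratio and is not shown, also has fewer (3 against 4).

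On the 5p side the other named extremes were miR-135a, miR-30b, miR-181a, miR-503, miR-100, miR-125a and miR-135b. miR-135a had 17528 5p and 3 3p reads in replicate 1 and 20242 and 6 in replicate 2. The fitted ratio of 3949-fold rests on these few 3p reads, and the 5p arm held between 99.95% and 99.99% of the hairpin in replicate 1 (95% Wilson interval). The name miR-135a-5p covers 2 loci and miR-135a-3p 1, and with the 3p reads of the other locus added the ratio was 131-fold. For the same reason miR-181a moved from 284-fold to 43.5-fold. miR-30b had 5625 and 10, then 6258 and 18 reads, and miR-503 had 1705 and 5, then 1301 and 9. miR-100 had 148 and 0, then 210 and 1 reads, too few on 3p for its ratio to be more than a rough size. miR-125a (8160 and 46, then 5847 and 52) and miR-135b (9666 and 74, then 10217 and 74) were better counted.

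On the 3p side miR-320a, whose hairpin is processed without Drosha, had 4 5p and 8007 3p reads in replicate 1 and 41 and 9652 in replicate 2. miR-124 had 73 and 19068, then 200 and 15207. miR-23b (19 and 3720, then 51 and 3453), miR-365a (28 and 4480, then 59 and 4091) and the epithelial miR-200b (22 and 2639, then 43 and 3025) were similar. The reads of miR-365a-3p are uncertain, since miR-365b-3p has an identical sequence. The next nearest to equal by the mean after miR-140 were miR-590 (51.9% and 49.5% on 5p), miR-518a (51.6% and 44.1%), miR-330 (54.0% and 53.5%) and miR-532 (47.9% and 60.2%), and none of the 5 was called.

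The first bases of the preferred strands differed from those of their partners. Of 138 called hairpins with both sequences, 71 (51.4%) had a preferred strand beginning with U, against 22 (15.9%) of the partner strands. C was the reverse, at 21 (15.2%) against 56 (40.6%). Among hairpins where 1 strand alone began with U, that strand was the preferred one in 57 and the other in 8. Some of the 138 hairpins are relatives with identical or nearly identical arms, so these counts are not of independent hairpins. The first 4 bases held more A and U in the preferred strand in 73 hairpins, in the other strand in 30, and were equal in 35. In the 46 hairpins with the largest ratios the mean count of A and U was 2.67 in the preferred and 1.83 in the other strand, and in the 46 with the smallest it was 2.41 and 2.30. Over the repertoire, 36.8% of matched miRNAs begin with U, and they held 64.3% and 61.4% of matched reads. The annotated length of 23 bases covered 58.8% and 57.3% of matched reads, and 22 bases covered 32.0% and 33.5%. These are descriptions of reference sequences, and the ends of the reads themselves were not analysed here.

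The libraries differed in how sharply arms were separated. The median ratio of preferred over other arm among the 168 called hairpins was 17.3-fold in replicate 1 and 13.1-fold in replicate 2, and the ratio was smaller in replicate 2 in 119 of them. Less abundant arms summed to 6.63% of all reads in replicate 1 and 8.63% in replicate 2. The same tendency was seen in 61 of the 89 called hairpins with at least 100 reads on each arm. It held for 68 of 102 hairpins called 5p and 51 of 66 called 3p. With 1 library on each side, no test was made, and its source was not tested.

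**Figure D5:**
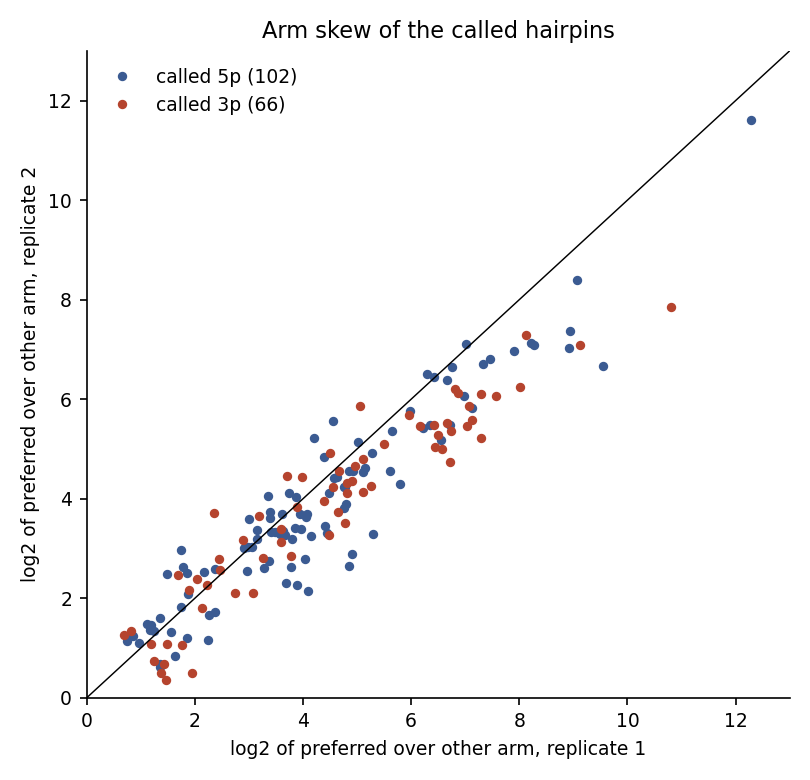
The log2 ratio of preferred over other arm in replicate 2 against replicate 1 for the 168 called hairpins (blue 5p, red 3p). The line marks equal ratios, and 119 hairpins lie below it.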

How the data were processed

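Per the labels' protocols, total RNA of H1 cells was extracted with Trizol and mixed with spike-in RNAs. Linkers joined first to the 3′ end and then to the 5′ end preceded gel selection, PCR and single-end sequencing. Linker ligation differs between sequences, so a share of reads is not a share of molecules. Cutadapt, limma and hg38 were used by the authors per the submitters' processing notes. How reads were aligned, counted, filtered and scaled is not given in the sources used here. Values in the deposited table are log2 of reads plus 0.5, over a denominator per library (an RPM scale), as their steps show. Reads recovered from them lay within 5.38e-09 of whole numbers. The reads came to 2.09 and 2.33 times the denominators (replicates 1 and 2), so shares were computed from reads. A count of 0 allows up to 3 reads, or 0.000112% and 0.000110%.

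Families are names with identical bases 2 to 8 in RefSeq (GRCh38.p14). Cluster membership follows listed hairpins, and names with copies elsewhere were kept out of the main share. Hosts are same-strand GENCODE 29 genes. Arm preference was tested per hairpin as the mean log2 of 3p over 5p reads (0.5 added to each) with limma 3.58.1 in R 4.3.3, intercept only, moderated variances with a trend on abundance, two-sided, with at least 20 reads in each library. With 1 residual degree of freedom per hairpin the estimated prior was infinite, so hairpins of 1 abundance share 1 spread.

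Named were the 20 most abundant miRNAs, the 10 largest families with 3 leading members, up to 10 members of 6 clusters, the 10 largest ratios per direction among called hairpins with at least 100 reads in each library, the 5 most even with at least 1000, the 5 largest changes per direction between libraries among miRNAs of at least 500 reads, and cell-type markers. Members, lists and tests were chosen with earlier results of these data known. Alternatives changed the added count, the filter, the variance options, the threshold, the seed length, the pooling of loci and the libraries.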

Additional observations from a re-analysis of the deposited data

How the results depend on the processing

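With 2 libraries, leaving out 1 always moves a mean by less than the SD, so those values are ranges. They were 59.8% to 60.2% for the 20 most abundant miRNAs, 30.4% to 33.7% for the miR-302 seed family, 31.9% to 34.0% for the 5p share and 111 to 115 hairpins with more 5p than 3p reads. The arm test has no residual degree of freedom with 1 library. No paired analysis was possible because only 1 group was used. The called hairpins numbered between 156 (adjusted p under 0.01) and 182 (202 hairpins tested, loci pooled) over 9 alternatives to the 168. None of the 168 turned direction. Only the pooling of loci could have turned one, since the other alternatives keep the sign of the ratio. Pooling moved the log2 ratio of 4 hairpins by over 0.1. At least 100 reads gave 157 of 177 and robust variances 164. Pooling loci added 16 hairpins, of which 10 were called 5p and 6 called 3p. Among miRNAs with a named arm only, the 20 most abundant held 61.1%. Names with copies elsewhere raised miR-17-92 to 13.0% and miR-106a-363 to 6.51% on average. The 5p share was 53.0% without the 5 most abundant miRNAs and 57.9% with the hairpins that have both arms weighted equally. Depth limits the rare arms: 69 less abundant arms averaged under 100 reads.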
